A study of Mus musculus with 6 samples.

Results

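Periostin (Postn) and 9 further secreted proteins of the extracellular matrix were examined in mouse ear skin at the tick bite site. These were tenascin-C (Tnc), thrombospondin 1 and 2 (Thbs1, Thbs2), SPARC (Sparc), osteopontin (Spp1), TGF-beta-induced protein (Tgfbi), fibronectin (Fn1), fibrillin 1 (Fbn1) and asporin (Aspn). They were taken from the table of 15667 genes by their gene symbols, and all 10 were found and passed the filter on low values. The group was put together because the level of Postn separated KO from WT libraries, so the difference between the genotypes is given for all 10 genes as a description, without a test.

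Ear skin came from female, young adult littermates of the B6;129-Adipoq tm1Chan/J line on which Ixodes scapularis nymphs had fed until the end of the second day. WT mice (Adipo+/+, n = 3) carried adiponectin, a hormone of fat cells, and KO mice (Adipo-/-, n = 3) carried its null allele in every tissue. Each library was made from the RNA of punched skin of 1 mouse, and both groups were bitten. Unbitten skin was not analysed here.

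Matricellular proteins are secreted into the matrix but act on cells more than they hold tissue together. Most are scarce in resting adult skin and are made by fibroblasts, macrophages or keratinocytes during development and wound repair. Periostin binds collagen, tenascin-C and fibronectin and signals through alpha v integrins, and its gene is known to respond to TGF-beta and to IL-4 and IL-13. Fibronectin, fibrillin and asporin belong to the scaffold itself, to which the others attach.

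All levels are given as CPM, the reads of a gene scaled to a fixed library total. WT replicates 1, 2 and 3 held Adipoq, the deleted gene, at 30.5, 63.7 and 49.6 CPM, and KO replicates 1, 2 and 3 at 0, 0.560 and 0 CPM. Implied depth was 3403707 to 6591521 reads per library. The defining genes of epidermis were present in every library, with Krt5 at 4810 to 7322 CPM and Krt10 at 8608 to 15152 CPM. The libraries differed most in hair follicle RNA. The 22 genes of a hair follicle epithelium list summed to 30.0, 37.4 and 24636 CPM in WT replicates 1, 2 and 3, and to 1960, 9776 and 1027 CPM in the KO replicates. Of the 22 genes, 16 were at 0 in at least 1 library. All KO sums thus lay above those of WT replicates 1 and 2, and the sum of WT replicate 3 lay above all others. WT replicate 3 stood apart within its group, and values without it are given where they matter.

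The upstream sequences of the 2 members whose WT and KO values did not overlap are shown, since these are the stretches next to which their transcription starts. RefSeq (GRCm38.p6) gives 2 starts for each gene. Both are shown for Postn, of which the first is the gene start of the deposited table, and for Spp1 the one that is the start in that table. Levels are per gene, so the start in use cannot be read from them. Each window covers the 150 bases before a start, on the plus strand. They lie at chr3:54359117-54359266 and chr3:54360957-54361106 for Postn and at chr5:104434961-104435110 for Spp1. Capitals mark matches to TATAAA, which is known as the TATA box, or to CAGAC (an element bound by SMAD proteins, the carriers of TGF-beta signals) on either strand.
Postn, first start: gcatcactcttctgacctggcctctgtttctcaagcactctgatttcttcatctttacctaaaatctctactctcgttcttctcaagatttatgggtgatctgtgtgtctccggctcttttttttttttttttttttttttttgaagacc
Postn, second start: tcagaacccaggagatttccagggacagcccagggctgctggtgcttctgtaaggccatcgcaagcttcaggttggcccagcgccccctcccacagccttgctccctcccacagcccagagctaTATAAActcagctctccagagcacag
Spp1: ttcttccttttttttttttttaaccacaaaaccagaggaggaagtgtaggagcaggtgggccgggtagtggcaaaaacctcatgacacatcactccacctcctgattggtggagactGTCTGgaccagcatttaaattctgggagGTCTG

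The second window of Postn held a TATAAA whose first base lay at position -26, counted from the start. This motif was found in 7.57% of 32851 windows of the same length before mouse gene starts. The Spp1 window held CAGAC on the minus strand at 2 places, first bases at -33 and -5, and 27.7% of all windows held it at least once. Neither TGANTCA (AP-1, in 4.24% of all windows) nor the STAT6 element (in 3.17%) was found in these 3 windows. A match is a string of letters and not a measured binding site.

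To see how the members differed between the genotypes, their levels were read in every library. Postn was about double in KO skin, Spp1 was lower, and the other 8 genes had overlapping values in both groups. Of the 10 genes, 8 had a positive and 2 a negative difference, with a median of 0.05 on the log2(CPM + 0.5) scale, against -0.03 over the 14306 genes tested. Of all genes tested, 6200 had a positive and 8106 a negative difference. The values of the genotypes did not overlap for 1 gene that was higher in KO (Postn) and 1 that was lower (Spp1). Over all genes tested, 2.95% were higher without overlap and 4.89% were lower without overlap, and nothing is read from these counts because the group was chosen on this contrast.

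**Figure D1:**
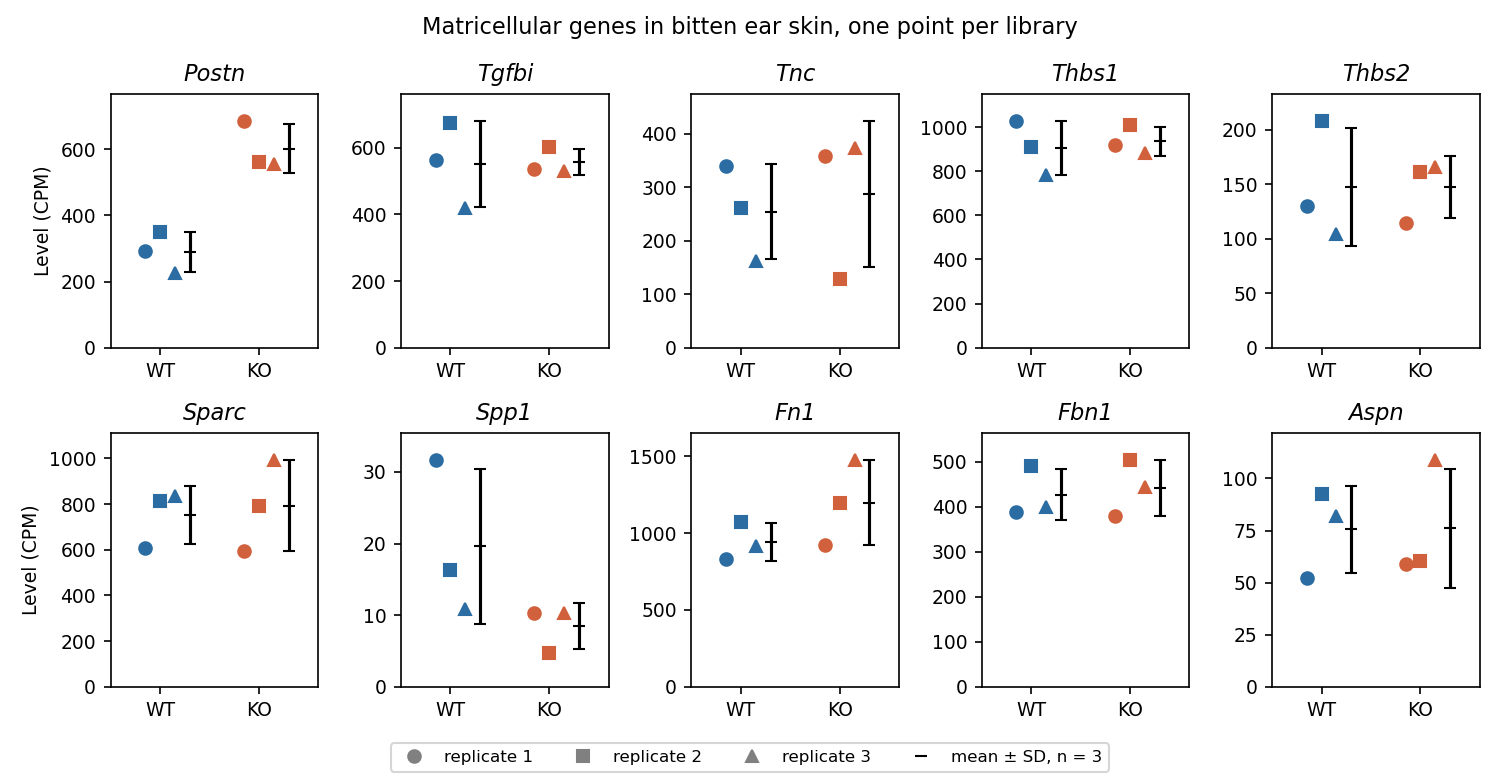
Level in CPM (y axis, from 0) of the 10 genes in the 3 WT (blue) and 3 KO (orange) libraries, with symbols for replicates and black bars for the mean and SD of each group. The KO points of Postn (554 to 686 CPM) all lie above the WT points (227 to 349 CPM), and those of Spp1 (4.76 to 10.3 CPM) lie below the WT points (10.9 to 31.7 CPM), while the groups overlap in the other 8 panels.

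Postn (chromosome 3, 54359267 to 54391041, plus strand) codes for periostin, which binds collagen and helps to cross-link it. WT replicates 1, 2 and 3 had 292, 349 and 227 CPM of Postn, and KO replicates 1, 2 and 3 had 686, 562 and 554 CPM. Every KO library lay above every WT library. The ratio of the group means was 2.08, with an SD of 60.9 CPM among WT and 74.0 CPM among KO mice (n = 3 each). These levels rested on 1206 to 4522 implied reads per library. On the log2 scale Postn differed by 1.07 (SE 0.17), a difference at the 99.3 percentile of the genes tested. A high rank is favoured by the choice of Postn on this contrast. Leaving out WT replicate 3 gave 0.90 and leaving out WT replicate 2 gave 1.21, and the other 4 omissions lay between.

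Spp1 (chromosome 5, 104435111 to 104441053, plus strand) codes for osteopontin, a phosphoprotein made by macrophages and injured epithelium that binds integrins and CD44. WT replicates 1, 2 and 3 had 31.7, 16.3 and 10.9 CPM of Spp1, and KO replicates 1, 2 and 3 had 10.3, 4.76 and 10.3 CPM. The groups did not overlap, but WT replicate 3 lay next to KO replicates 1 and 3, and WT replicate 1 was far above the rest. Mean levels were 19.6 ± 10.8 CPM among WT mice and 8.45 ± 3.20 CPM among KO mice (SD, n = 3 each). Spp1 was the scarcest member, with 66 to 131 implied reads per WT library and 17 to 68 per KO library. It differed by -1.11 on the log2 scale (SE 0.43), by -0.70 with WT replicate 1 left out and by -1.45 with WT replicate 3 left out. GENCODE M21 places Gm42793 on the same strand over Spp1, and reads of the 2 genes cannot be told apart here.

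Tgfbi (chromosome 13, 56609586 to 56639359) is the closest relative of Postn, as both proteins are built of fasciclin domains and both genes respond to TGF-beta. WT libraries held 564, 675 and 418 CPM of it, and KO libraries held 537, 603 and 531 CPM. The KO values fell inside the WT range. Its log2 difference was 0.04 (SE 0.17), against 1.07 for Postn.

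Tnc (chromosome 4, 63959785 to 64047015) codes for tenascin-C, a protein of wound edges to which periostin binds. WT libraries held 339, 261 and 163 CPM, and KO libraries held 359, 129 and 374 CPM. Low and high libraries occurred in both groups, and the lowest values were those of KO replicate 2 and WT replicate 3. These were also the libraries with the highest hair follicle sums, 9776 and 24636 CPM. The part of hair follicle RNA in the level of Tnc was not tested. The log2 difference of Tnc was 0.09 (SE 0.43), and 0.43 once the hair follicle score was added to the fit. Leaving out WT replicate 3, KO replicate 1 or KO replicate 3 turned it to -0.20, -0.15 or -0.18, and leaving out KO replicate 2 gave 0.59, so no direction can be given.

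Thbs1 (chromosome 2, 118111876 to 118127133) codes for thrombospondin 1, which activates latent TGF-beta and binds CD36 and CD47. WT libraries held 1029, 909 and 784 CPM, and KO libraries held 919, 1010 and 881 CPM. The highest of the 6 values was 1.31 times the lowest, the narrowest range of the 10 genes. Thbs1 differed by 0.05 on the log2 scale (SE 0.13). Thbs2 (chromosome 17, 14665500 to 14694262), whose protein limits vessel growth, had 130, 208 and 104 CPM in the WT libraries against 114, 161 and 166 CPM in the KO libraries. Its groups overlapped widely, with a log2 difference of 0.04 (SE 0.26).

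Sparc (chromosome 11, 55394159 to 55420080) codes for a protein that binds collagen and takes part in its assembly. WT libraries held 608, 813 and 835 CPM, and KO libraries held 593, 793 and 994 CPM. The groups overlapped, with KO replicate 1 lowest and KO replicate 3 highest of the 6 libraries. Sparc differed by 0.06 on the log2 scale (SE 0.21).

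Fn1 (chromosome 1, 71585473 to 71653234) codes for fibronectin, the scaffold on which periostin and collagen are laid down. WT libraries held 831, 1073 and 913 CPM, and KO libraries held 923, 1195 and 1477 CPM. KO replicates 2 and 3 lay above all WT libraries, while KO replicate 1, the library with the most Postn, lay inside the WT range. Mean levels were 939 ± 123 CPM among WT mice and 1198 ± 277 CPM among KO mice (SD, n = 3 each). Fn1 differed by 0.33 on the log2 scale (SE 0.18), and by 0.17 with KO replicate 3 left out.

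Fbn1 (chromosome 2, 125300594 to 125506438) codes for fibrillin 1, the core of elastic microfibrils. WT libraries held 389, 492 and 400 CPM, and KO libraries held 380, 504 and 445 CPM, with a log2 difference of 0.05 (SE 0.14). Aspn (chromosome 13, 49544443 to 49567562) codes for asporin, a small leucine-rich protein that binds collagen and TGF-beta. WT libraries held 52.3, 92.6 and 82.1 CPM, and KO libraries held 58.7, 60.2 and 109 CPM. Its log2 difference was -0.01 (SE 0.29) and changed to 0.02 after median-of-ratios rescaling and to 0.01 after quantile normalization. In the deposited table Aspn overlaps Cenpp, a gene on the other strand. GENCODE M21 also places genes on the other strand over Tnc, Fn1, Thbs1 and Fbn1. Whether these members share reads with the overlapping genes was not tested.

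**Figure D2:**
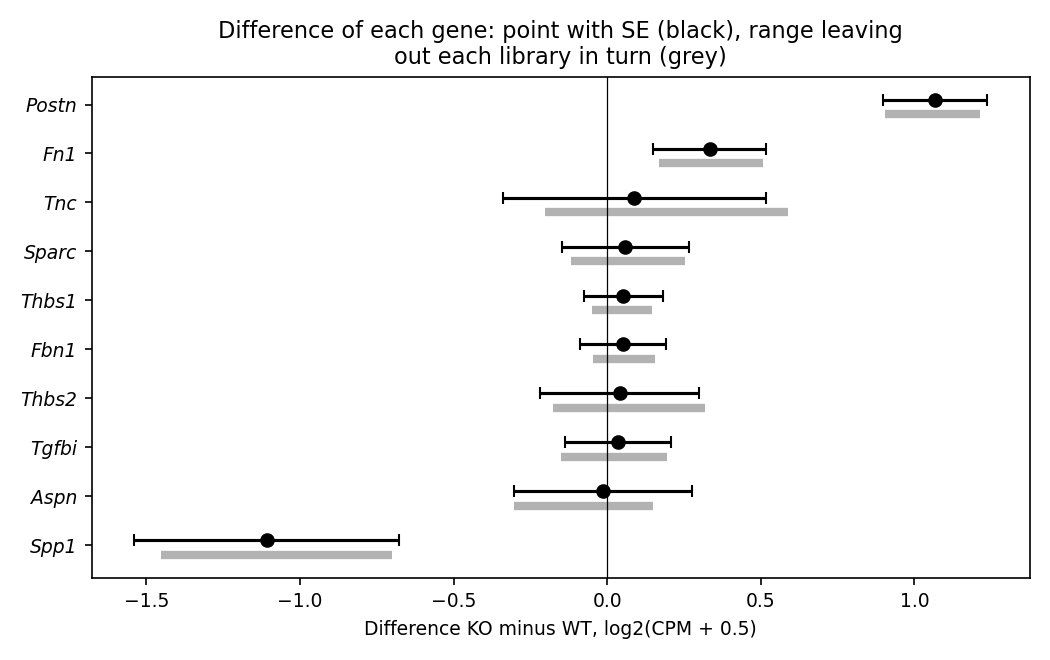
Difference KO minus WT of the 10 genes on the log2(CPM + 0.5) scale (x axis), with the SE of the limma fit in black and the range obtained by leaving out each of the 6 libraries in turn in grey. Postn (1.07) and Spp1 (-1.11) lie away from 0 with their whole grey range, as does Fn1 (0.33) at smaller size, while the ranges of the other 7 genes include 0.

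Levels were then compared between members per exon length (CPM per kb of merged GENCODE M21 exons), since long transcripts give more reads. By the median over the 6 libraries, Sparc was highest at 295 CPM per kb, followed by Tgfbi (203), Thbs1 (156), Postn (137) and Fn1 (118). Tnc (38.6), Fbn1 (35.2), Aspn (30.2), Thbs2 (24.7) and Spp1 (6.43 CPM per kb) were lower. Sparc exceeded Tgfbi, and Tgfbi exceeded Thbs1, in 6 of 6 libraries, and the ranges of Fn1 and Tnc did not touch. The position of Postn relative to Thbs1 and Fn1 differed only in part by genotype, the contrast on which Postn was chosen. Its level was 69.0 to 106 CPM per kb in the WT libraries, where it was above Thbs1 in 0 of 3 and above Fn1 in 0 of 3. In the KO libraries it was 169 to 209 CPM per kb, above Thbs1 in 2 of 3 and above Fn1 in 2 of 3. Tnc exceeded Fbn1 in 3 of 6 libraries, so these neighbours have no order.

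As a share of the summed CPM of all 10 genes, Postn made up 6.84%, 7.13% and 5.76% in WT replicates 1, 2 and 3. Its mean share was 6.58% ± 0.720 among WT mice and 12.1% ± 2.60 among KO mice (SD, n = 3 each), with the highest share, 15.0%, in KO replicate 1. Without Postn the summed level of the other 9 genes was 3974, 4541 and 3712 CPM in the WT libraries and 3894, 4460 and 4987 CPM in the KO libraries, and the groups overlapped.

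To set Postn against other matrix genes, its level was divided by theirs within each library. These ratios use the same contrast and are likewise a description. Against its relative Tgfbi the ratio was steady among WT mice, at 0.517, 0.516 and 0.543 in replicates 1, 2 and 3. Among KO mice it was 1.28, 0.932 and 1.04. The KO ratios lay above the WT ratios for each of the 5 members tried. Mean KO over mean WT values were 2.06 for Tgfbi, 2.02 for Thbs1, 2.06 for Fbn1, 2.05 for Sparc and 1.72 for Fn1. Tnc, Thbs2, Spp1 and Aspn were not among those tried. Against Aspn, at 52.3 CPM in WT replicate 1 and 109 CPM in KO replicate 3, the groups overlap. Against Pdgfra, a receptor that marks fibroblasts, the ratio was 2.44, 2.86 and 2.20 among WT mice and 8.24, 4.42 and 5.10 among KO mice. In whole skin, a larger number of cells that make a transcript and more transcript per cell cannot be told apart.

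Against 5 collagen genes the ratios of the group means were smaller, at 1.52 for Col12a1, 1.64 for Col6a3, 1.69 for Col1a2 and 1.70 for Col3a1, and lowest for Col1a1. The KO ratios still lay above the WT ratios for Col3a1, Col1a2 and Col6a3. The ratio of Postn to Col3a1 was 0.162 to 0.197 among WT mice and 0.230 to 0.460 among KO mice. Against Col1a1 the WT libraries gave 0.282, 0.320 and 0.161 and the KO libraries 0.553, 0.302 and 0.286, so that the groups overlapped. They also overlapped against Col12a1. For both, KO replicate 1 had the highest ratio.

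**Figure D3:**
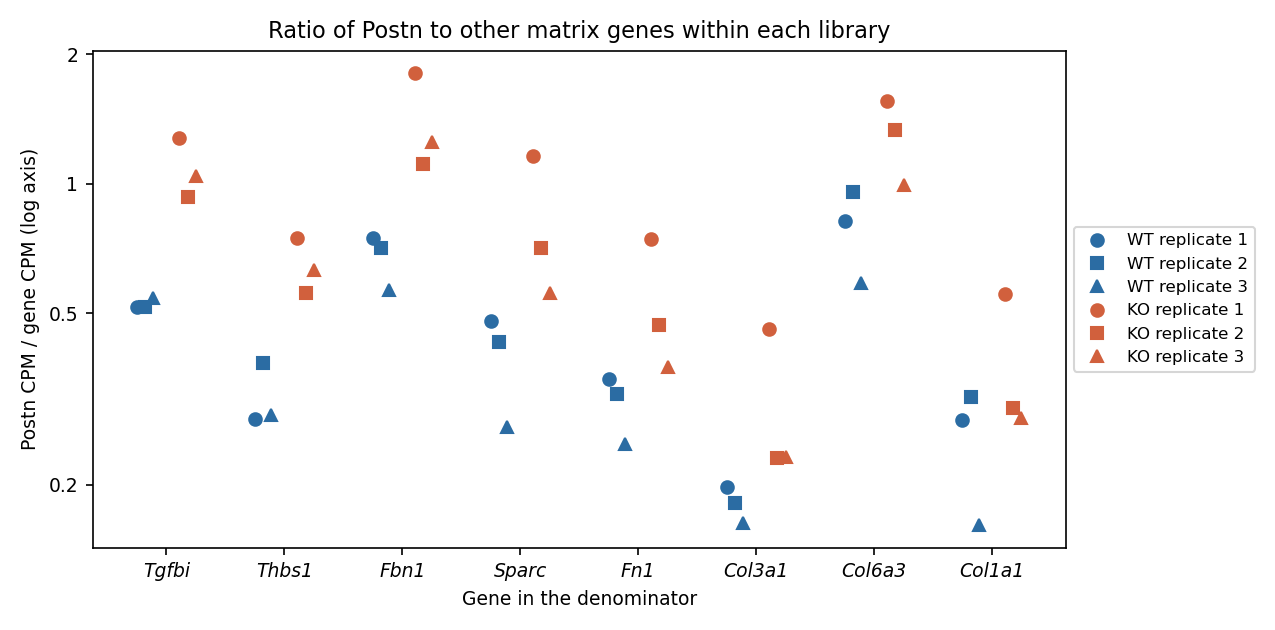
Ratio of Postn CPM to the CPM of 8 other matrix genes within each library (log y axis), with WT libraries in blue and KO libraries in orange. KO ratios lie above all WT ratios for Tgfbi, Thbs1, Fbn1, Sparc, Fn1, Col3a1 and Col6a3 and overlap with them for Col1a1, where KO replicates 2 (0.302) and 3 (0.286) fall within the WT range of 0.161 to 0.320.

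Lists of related genes were next examined with limma, a linear model fitted to all genes. They held 105 genes in all, of which 98 were tested. By limma 0 of them passed the Benjamini-Hochberg adjustment over all genes, which 0.00699% of genes passed in each direction, and 5 genes were higher and 4 lower in KO at an unadjusted p below 0.05, where 1.06% and 1.82% of all genes were. By limma voom on recovered reads these counts were 5 and 6. In the main fit all 5 higher genes belonged to the list of collagens and enzymes that process or cross-link them, in which periostin has its known partners. With a skeletal muscle score added to the fit, 16 list genes were higher, and 7 of them belonged to the collagen list. The lists were chosen with earlier results of these data known. Every gene named from these lists had an adjusted p of 0.998 in limma, so none is called changed, and the genes below are given by their values. Counts of positive or negative differences in the lists stand beside 6200 positive and 8106 negative differences among all 14306 genes tested.

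Of the 21 genes of the collagen list, 20 had a positive difference, with a median of 0.16 on the log2 scale against -0.03 over all genes. Col6a3, a chain of the beaded collagen VI filaments, had 357, 365 and 386 CPM in the WT libraries against 440, 422 and 558 CPM in the KO libraries (log2 difference 0.35, SE 0.12). Its groups did not overlap. Col6a2 of the same filaments had 202, 207 and 206 CPM against 229, 246 and 323 CPM (0.36, SE 0.14), again without overlap. Plod2, the lysyl hydroxylase that prepares collagen for stable cross-links, had 4.11, 5.77 and 10.4 CPM against 11.1, 15.8 and 10.6 CPM (0.91, SE 0.34), and its groups were separated by a small gap.

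Col12a1, a collagen that sits on fibril surfaces, differed by 0.44 and Col1a1, the main chain of type I collagen, by 0.50 on the log2 scale, both with overlapping groups. Col3a1, the gene of the list with the highest level, averaged 1601 ± 285 CPM among WT mice and 2107 ± 532 CPM among KO mice (SD, n = 3 each), with overlap. The count of 5 changed when single libraries were left out. It was 0 without WT replicate 1, 0 without WT replicate 2 and 6 without WT replicate 3. Leaving out KO replicate 1, 2 or 3 gave 9, 3 or 1. It was also 1 when limma was run without its variance trend.

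The closest relatives of the members were less uniform in direction. Of the 5 tested thrombospondin and tenascin genes, 0 had an unadjusted p below 0.05 in limma. Tnxb, a tenascin of dermal collagen and the highest of them, averaged 383 ± 96.7 CPM among WT mice and 336 ± 107 CPM among KO mice (SD, n = 3 each). The count was likewise 0 for 5 genes of the SPARC family, led by Fstl1 with a log2 difference of -0.12, and for 17 fibulins and elastic fibre genes, led by Ltbp4 with -0.08. In the CCN family, whose members are induced in stretched or injured tissue, 0 of 5 passed that threshold and 4 differences were negative, with a median of -0.25. Its highest gene, Ccn2, averaged 206 ± 30.7 CPM among WT mice and 178 ± 64.0 CPM among KO mice (SD, n = 3 each).

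Of 11 small leucine-rich proteoglycans, the family of asporin, 1 had an unadjusted p below 0.05 on the lower side. This was Prelp, a protein that ties collagen to basement membranes, with 198, 268 and 246 CPM in the WT libraries against 127, 170 and 221 CPM in the KO libraries, with overlap (log2 difference -0.48, SE 0.21). With the skeletal muscle covariate its difference was -0.11, and its unadjusted p was above 0.05 without any one of WT replicates 2 and 3 and KO replicates 1 and 2. That p was also above 0.05 after median-of-ratios rescaling or quantile normalization, with a filter at 5 CPM, and without the variance trend. Dcn, the highest of the family, differed by -0.34 (SE 0.18).

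Among the 18 receptors of these proteins, 13 had a negative difference (median -0.17), as did 8106 of the 14306 genes tested. Of these receptors, 2 were lower at an unadjusted p below 0.05 in limma. Sdc2, a heparan sulfate proteoglycan of the cell surface, had 42.6, 53.5 and 46.5 CPM in the WT libraries against 27.2, 37.0 and 29.1 CPM in the KO libraries, without overlap (log2 difference -0.61, SE 0.16). Cd36, the thrombospondin 1 receptor that also takes up fatty acids, had 117, 146 and 133 CPM against 76.6, 131 and 69.3 CPM (-0.57, SE 0.23). KO replicate 2 overlapped the WT libraries. Cd36 missed that threshold without any one of WT replicates 2 and 3 and KO replicates 1 and 3, and also without the variance trend. Sdc2 met it under all 17 alternatives. The 12 genes of the adipocyte list all had negative differences. Among them is the deleted gene Adipoq, whose negative difference follows from the genotype. The 12 genes summed to 613 to 942 CPM among WT mice and 361 to 895 CPM among KO mice, with the highest KO sum in replicate 2. Their part in the level of Cd36 was not tested.

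Of 16 tested genes known to induce periostin or to pass on that signal, 13 had a negative difference (median -0.08), while Il4 and Il13 were not analysed here. By limma 0 of the 16 were higher and 1 was lower in KO at an unadjusted p below 0.05. This was Tgfbr1, the kinase receptor of TGF-beta, with 61.2, 61.6 and 58.7 CPM in the WT libraries against 50.1, 44.8 and 52.3 CPM in the KO libraries, without overlap (log2 difference -0.30, SE 0.11). It missed that threshold without any one of WT replicates 1 and 2 and KO replicates 1 and 2. Tgfbr1 also missed it after quantile normalization and with the hair follicle or the skeletal muscle covariate. Il13ra1, the IL-13 receptor chain and the highest of the list, differed by -0.08 (SE 0.22).

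**Figure D4:**
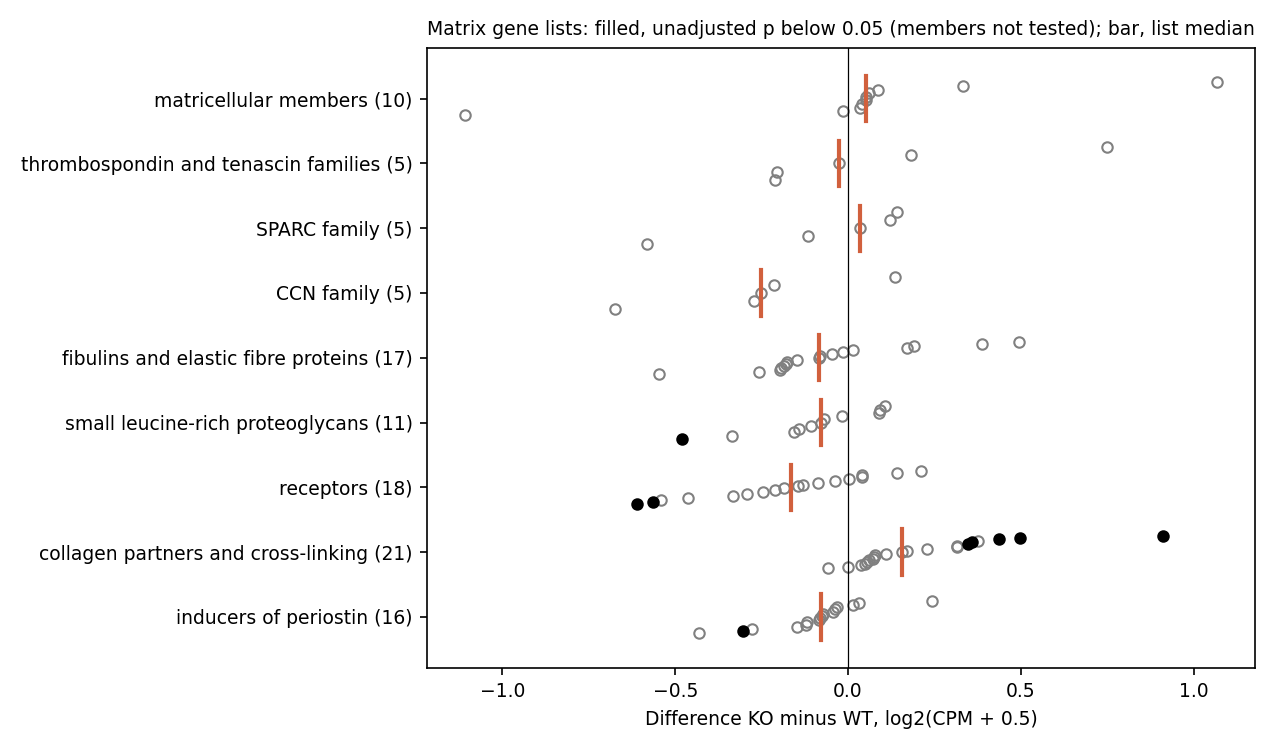
Difference KO minus WT on the log2(CPM + 0.5) scale (x axis) of each tested gene in the 10 members and 8 related lists (number of genes in brackets), with filled points for an unadjusted p below 0.05 in limma outside the members and an orange bar at each median. Postn (1.07) and Spp1 (-1.11) are the outermost points of the members, and the collagen list has a median of 0.16, while the receptor list has a median of -0.17.

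Marker lists of the cells that could supply these transcripts were read beside the members. Their counts of negative differences stand beside 8106 negative differences among the 14306 genes tested. The 12 fibroblast markers summed to 1314 to 1701 CPM among WT mice and 1246 to 1510 CPM among KO mice, none was at 0 in any library, and 10 of the 12 had a negative difference. The 8 smooth muscle and myofibroblast markers summed to 111 to 239 CPM and 93.6 to 166 CPM, and all 7 tested had a negative difference. For hair follicle mesenchyme the 11 genes in the table summed to 138 to 180 and 116 to 197 CPM. Of the 22 hair follicle epithelium genes, 21 had a positive difference, with a median of 2.51 on the log2 scale. The highest sum of that list was nevertheless that of a WT library, so the groups overlapped. Cartilage markers, 11 in the table, summed to 146 to 311 CPM among WT mice and 213 to 367 CPM among KO mice, with 10 of 11 differences positive and none at 0. Their part in the difference of Postn was not tested. Skeletal muscle markers summed to 7595 to 9785 CPM among WT mice and 4746 to 9340 CPM among KO mice, with all 18 differences negative. With the muscle score as a covariate Postn differed by 0.92 on the log2 scale, and with the hair follicle score by 1.20.

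For Spp1 and Thbs1, macrophages and platelets are known sources. The 12 macrophage markers summed to 726 to 1256 CPM among WT mice and 619 to 1201 CPM among KO mice, with 11 of 12 differences negative and none at 0. The highest macrophage sums were those of WT replicate 2 and KO replicate 2, and the latter was the library with the least Spp1. The 8 platelet genes in the table summed to 71.4 to 84.9 CPM and 52.1 to 77.6 CPM, and 3 of the 8 were at 0 in at least 1 library. The part of these cells in the level of Spp1 was not tested.

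The genes whose pattern over the 6 libraries was most like that of Postn were sought among 11686 genes (mean of 5 CPM or more), by the root mean square difference of centred log2 values. Since Postn separates the groups, genes like it tend to do so too. The first 5 were Fcgbp (0.18), which codes for a mucin-like protein, Nemp2 (0.24), the amino acid transporter gene Slc6a20a (0.24), Rapgef4 (0.25), a Rap1 exchange factor, and Dsg1c (0.27), an epidermal desmoglein. Fcgbp had 2130, 2632 and 1872 CPM in the WT libraries against 3807, 3777 and 3632 CPM in the KO libraries. Among the members and list genes the nearest was Col6a3, at rank 399 with a difference of 0.46.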

How the data were processed

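RNA of bitten ear skin from 3 WT and 3 KO mice was sequenced in paired ends. The authors trimmed the reads, aligned them to mm10 with STAR (2.7.3a) and assigned them to Ensembl transcripts with the E/M algorithm of Partek Flow. The deposited gene values are CPM plus an offset of 1e-04, which was subtracted here. Strand use in counting: not given in the sources used here. Positions are as deposited, with gene ends lowered by 1. Groups came from the sample titles.

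Depth was estimated from the CPM step of 1 read. Of low values, 91.6% to 92.7% were whole multiples of it (within 0.1 of a read), so no count model was the main test. The 14306 genes averaging 1 CPM or more (1361 were left out) were fitted as log2(CPM + 0.5) with limma (3.58.1, R 4.3.3, eBayes with trend, two-sided). P-values were adjusted by Benjamini-Hochberg over all genes, and the step was tested on simulated data. No 2 libraries were alike within sampling noise (chi-square per degree of freedom 8.26 to 42.4).

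The members and lists were chosen with earlier results of these data known. From each list the gene with the highest mean was named, with up to 2 genes per direction that had the smallest p among those with unadjusted p below 0.05, besides the 5 genes most like Postn. Col6a2, Col12a1, Col1a1, Col1a2 and Pdgfra were named after their values were seen. Of the 10 members, 8 were matched to RefSeq windows by symbol. Alternatives changed the pseudocount, filter, scaling, variance trend, test, covariates, block and each library in turn.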

Additional observations from a re-analysis of the deposited data

How the results depend on the processing

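Postn was higher in KO under all 17 alternatives (log2 difference 0.90 to 1.21), and Spp1 was lower under all 17 (-1.45 to -0.70). Since Postn was chosen on this contrast in the same libraries, its constant direction is a description and no support for a difference. The range for Postn without a single library was 0.90 to 1.21. The median over the 10 members ranged from -0.02 to 0.15 without a single library. With the skeletal muscle covariate the differences of Fn1, Sparc and Aspn moved to 0.62, 0.43 and 0.52. With the hair follicle covariate that of Tnc was 0.43. Causes of the moves below were not tested.

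The number of all genes passing the adjustment (2) moved to 1 with limma voom, 9 with the hair follicle covariate and 0 with the skeletal muscle covariate, and ranged from 0 (without WT replicate 2) to 16 (without WT replicate 3). Higher genes with an unadjusted p below 0.05 (152) became 238 with quantile normalization, 301 with the hair follicle and 244 with the skeletal muscle covariate, and they ranged from 89 (without KO replicate 3) to 313 (without WT replicate 3). The number of lower genes (260) moved to 568 and 441 with these covariates, and ranged from 147 (without WT replicate 2) to 395 (without WT replicate 3). The share of lower genes among these was 63.1%, against 50.6% after median-of-ratios rescaling and 43.7% after quantile normalization.

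No list gene passed the adjustment in any setting. The number of higher list genes (5) moved to 8 with quantile normalization, 1 without the trend, 3 with the hair follicle and 16 with the skeletal muscle covariate, and ranged from 0 (without WT replicate 2) to 11 (without KO replicate 1). The number of lower list genes (4) moved to 2 with quantile normalization and 2 without the trend, and ranged from 1 (without WT replicate 2) to 9 (without WT replicate 3).

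The sample titles give replicate numbers and no pairing of WT with KO mice. Deviations of equal numbers correlated at 0.376, -0.306 and -0.222 across genes, and those of unequal numbers at -0.382 to 0.449. These values cannot show whether WT and KO mice shared a litter or a batch. With the number as a replicate block, 414 genes were lower, 8 list genes higher and 9 lower, and Postn differed by 1.07. Depth limits mainly Spp1, where 3 reads stand for 0.455 to 0.881 CPM.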
